A study of Mus musculus with 6 samples.

Results

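The 7 genes described here encode the chemokine and neuregulin signals that guide migrating cortical interneurons. They are the chemokine receptors Cxcr4 and Ackr3, their ligand Cxcl12, the receptor tyrosine kinase Erbb4 and the neuregulins Nrg1, Nrg2 and Nrg3. They were taken by symbol from a deposited table of 34745 genes, and each symbol matched 1 identifier. They were measured by RNA-seq in the dissected medial ganglionic eminence (MGE) of mouse embryos at embryonic day 12.5, a part of the ventral forebrain in which many cortical interneurons are born. The groups were 3 Sp9 null (Sp9-/-) libraries and 3 libraries of wild type littermates, all on a mixed C57BL/6J, 129S6 and CD1 background. The labels give neither the kind of null allele nor whether a library holds 1 embryo or several, so p-values reflect only how far these samples spread, and that spread may be technical.

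CXCL12 attracts cells that carry CXCR4, a receptor that signals through G proteins. ACKR3, also called CXCR7, binds the same ligand, signals mainly through arrestins and takes CXCL12 up into the cell. MGE-derived interneurons carry both receptors, and CXCL12 from the meninges and from the cortical progenitor zone holds them in their migratory streams. ERBB4 is the neuregulin receptor of these neurons, and neuregulins act on it as short- and long-range guidance signals. Sp9 encodes a zinc finger transcription factor of the Sp family.

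Library totals were 6826447 to 10979280 counts in Sp9 null and 9536050 to 10914147 counts in wild type libraries. Sp9 averaged 12 ± 1.3 CPM (counts per 1000000 counts of the library) in Sp9 null and 213 ± 30.6 CPM in wild type libraries (SD, n = 3 each), and all 6 libraries matched their labels. Nkx2-1, the regional determinant of the MGE, was at 895 to 945 CPM in Sp9 null and 800 to 927 CPM in wild type libraries, and none of the 12 MGE markers listed was at 0 in any library. The libraries numbered 2 stood apart in both genotypes, along a first principal component with 49.2% of the variance. Their summed pallial markers were at 9.84 CPM in Sp9 null and 8.25 CPM in wild type, against 28.5 to 67.5 CPM in the other 4 libraries. Same-numbered libraries deviated together from their genotype means (r = 0.339, 0.719 and 0.528 for numbers 1, 2 and 3). Numbers 1 and 3 also did so with each other across genotypes (r = 0.343 and 0.229), so the data did not single out pairs among them. The edgeR fit was repeated with the number as a blocking term, a choice made from these data. Its value is given beside the one from genotype alone wherever it changes a call. The labels do not say what a number marks.

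Of the 7 genes, 0 were called by edgeR with genotype alone at an adjusted p under 0.05, when 0.147% of all 14929 tested genes were (0.0469% higher and 0.1% lower in Sp9 null libraries). None of the 7 had an unadjusted p under 0.05 in that fit, and DESeq2 and limma called 0 of them, beside 0.39% and 0.255% of the genes each tested. With the replicate block, Ackr3 was called lower in Sp9 null libraries and no other member was called in either direction. In that fit 1.78% of all tested genes were called lower, 2.22% higher and 4.0% either way. All 7 genes passed the filter on low counts, and in all 7 the CPM ranges of the genotypes overlapped. The ranges did not overlap for 13.0% of all tested genes. The median log2 fold change over the 7 genes was -0.018 (Sp9 null over wild type), beside -0.005 over all tested genes.

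**Figure D1:**
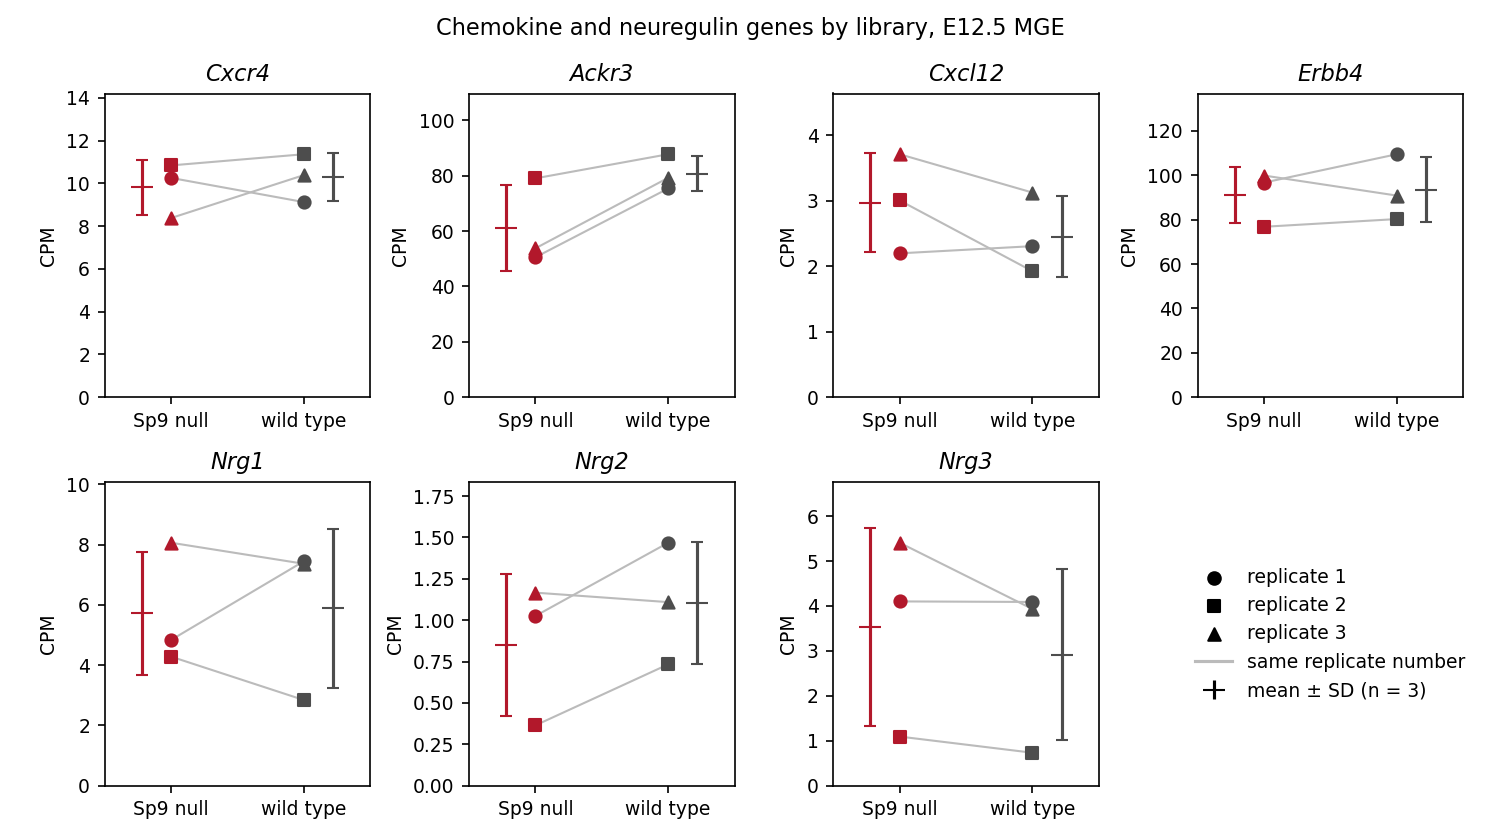
CPM of each gene in the 3 Sp9 null (left) and 3 wild type (right) libraries; symbols mark replicate numbers, grey lines join the same number, and bars give the mean ± SD (n = 3). Ackr3 lies lower in the Sp9 null library of every number, with Sp9 null replicate 2 inside the wild type range, and the other 6 genes overlap between genotypes.

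Ackr3 (ENSMUSG00000044337, chromosome 1, 90203980 to 90216751) is the scavenging receptor for CXCL12. It had 50.5, 79.1 and 53.8 CPM in Sp9 null replicates 1, 2 and 3, against 75.4, 87.8 and 79.3 CPM in wild type replicates 1, 2 and 3. Sp9 null replicates 1 and 3 lay below every wild type library, whereas Sp9 null replicate 2 fell inside the wild type range. The ratio of Sp9 null to wild type within a number was 0.670, 0.901 and 0.678 for numbers 1, 2 and 3. A level lower at all 3 numbers occurred in 22.6% of all tested genes.

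The Ackr3 log2 fold change was -0.37 (SE 0.18, 95% interval -0.80 to 0.05, edgeR adjusted p = 0.882) with genotype alone. With the replicate block it was -0.39 (SE 0.08, 95% interval -0.56 to -0.22, adjusted p = 0.00509). The call with the block was kept without the libraries numbered 1 or 2, when edgeR called 3.48% and 0.392% of genes lower. It was lost without those numbered 3 (edgeR adjusted p = 0.197, with 0.764% of genes called lower) and by DESeq2 with the block (adjusted p = 0.157, with 0.374% called lower). The refits without a number reuse the same libraries and leave fewer to estimate the spread, so they are no independent test. Without number 1, 7.89% of all tested genes were called either way, against 4.0% with all libraries. Without the libraries numbered 2 in both genotypes the Ackr3 log2 fold change was -0.55. Ackr3 was then called by edgeR with genotype alone too (adjusted p = 0.0168, beside 0.338% of genes called lower). That fit was chosen after seeing the data, and it leaves out the Sp9 null library that lay inside the wild type range. Without the libraries numbered 1 or 3 in both genotypes, genotype alone gave -0.29 and -0.30, and Ackr3 was not called. In bulk tissue, fewer cells of a type and less RNA per cell cannot be told apart. Endothelium also expresses Ackr3. Its 10 markers summed to 158 to 177 CPM in Sp9 null and 163 to 181 CPM in wild type libraries, and 0 of them were called in either fit, with 0 at an unadjusted p under 0.05.

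Lhx6, the LIM homeobox factor that MGE neurons need for Ackr3 expression, was lower in the same libraries. It was at 381, 336 and 407 CPM in Sp9 null replicates 1, 2 and 3, against 580, 482 and 502 CPM in wild type replicates 1, 2 and 3, with no overlap of the genotypes. With the block it was called lower (log2 fold change -0.46, SE 0.06, edgeR adjusted p = 6.01e-06), while genotype alone gave an adjusted p of 0.339. Unlike that of Ackr3, the lowest Sp9 null value of Lhx6 was in replicate 2. The 12 MGE markers, of which Lhx6 is 1, went both ways: with the block 3 were called higher and 3 lower, beside 4.0% of all tested genes called either way, and genotype alone gave 1 higher and 0 lower. Their median log2 fold change was 0.11, and they summed to 5167 to 5236 CPM in Sp9 null and 4486 to 4662 CPM in wild type libraries. Dlx1, a homeobox gene of ventral forebrain progenitors, was the one called higher in both fits. It was at 1469 ± 69.8 CPM in Sp9 null and 923 ± 62.6 CPM in wild type libraries (SD, n = 3 each). Its difference between the genotypes was nearly as large as that of the summed list. The mitochondrial share of counts was 2.32%, 3.43% and 3.41% in Sp9 null replicates 1, 2 and 3, against 2.20%, 2.22% and 2.28% in wild type replicates 1, 2 and 3. The part of Lhx6, of the other markers or of the mitochondrial share in the Ackr3 level was not tested.

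Cxcr4 (ENSMUSG00000045382, chromosome 1, 128588199 to 128592293), the receptor that drives movement towards CXCL12, had similar levels in both genotypes. It had 10.3, 10.8 and 8.38 CPM in Sp9 null replicates 1, 2 and 3, against 9.12, 11.4 and 10.4 CPM in wild type replicates 1, 2 and 3. These values rest on 70 to 119 counts per library in Sp9 null and 87 to 124 in wild type. The groups overlapped, and Sp9 null was higher at number 1 and lower at numbers 2 and 3. The log2 fold change was -0.05 (SE 0.17, 95% interval -0.44 to 0.35, edgeR adjusted p = 0.997). The interval does not exclude a fall as large as that of Ackr3.

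The balance of both CXCL12 receptors was compared within each library, where scaling by depth cancels. On the deposited FPKM scale, Ackr3 was 3.85, 5.69 and 5.01 times Cxcr4 in Sp9 null replicates 1, 2 and 3, against 6.45, 6.03 and 5.95 times in wild type replicates 1, 2 and 3. Every Sp9 null ratio lay below every wild type ratio. The nearest were 5.69 in Sp9 null replicate 2 and 5.95 in wild type replicate 3, where Cxcr4 had 119 and 103 counts. The counting error of these ratios was not estimated. Among single genes, the CPM of 13.0% of all tested genes separated the genotypes, and the share of gene pairs that do so was not tested. The deposited length was 1.5 times that of the GENCODE M21 exons for Cxcr4 and 1.04 times for Ackr3. Per kb of those exons the ratios would therefore be smaller. The lengths are the same in every library, so the comparison of genotypes does not depend on them. The log2 ratio averaged 2.26 ± 0.29 in Sp9 null and 2.62 ± 0.06 in wild type libraries (SD, n = 3 each), a difference of -0.36. By an exact permutation test (two-sided) p was 0.1, which with 3 libraries a group is the lowest value that can occur.

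The promoters of both receptor genes are shown because Sp-family zinc fingers are known to bind GC and GT boxes. The sequences are the 250 bases before each start from RefSeq on GRCm38.p6, read 5′ to 3′ on the strand of the gene, with capitals marking GC boxes (GGGCGG, or CCGCCC on the other strand). Ackr3 lies on the plus strand at chr1:90203730-90203979 and Cxcr4 on the minus strand at chr1:128592300-128592549.
Ackr3: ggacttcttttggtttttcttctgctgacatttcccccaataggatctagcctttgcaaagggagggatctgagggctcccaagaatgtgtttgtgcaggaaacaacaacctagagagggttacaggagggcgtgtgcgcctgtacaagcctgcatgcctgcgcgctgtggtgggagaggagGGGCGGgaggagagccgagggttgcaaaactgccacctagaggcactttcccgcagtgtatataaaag
Cxcr4: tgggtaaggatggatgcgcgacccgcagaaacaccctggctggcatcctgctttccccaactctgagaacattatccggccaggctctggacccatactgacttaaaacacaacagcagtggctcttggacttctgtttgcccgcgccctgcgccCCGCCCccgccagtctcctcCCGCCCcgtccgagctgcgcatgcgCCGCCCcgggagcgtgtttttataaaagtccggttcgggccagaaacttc

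The Ackr3 window holds 1 GC box and the Cxcr4 window holds 3. A GC box stands in 32.7% of 32851 such windows, and 3 or more stand in 8.5%. The Cxcl12 window holds 5 GC boxes and 1 GT box (GGGTGG or CCACCC, found in 28.1% of all windows). The Erbb4 and Nrg3 windows hold neither box, and TAATTA, a homeobox core found in 4.8% of windows, is in none of the 5 windows. Nrg1 and Nrg2 were not matched. G and C make up 54.0%, 61.2%, 64.4%, 54.0% and 72.4% of the Ackr3, Cxcr4, Cxcl12, Erbb4 and Nrg3 windows. The median over all windows is 52.4%, and the shares above were not matched for it. The matches describe letters only and are no record of binding.

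Cxcl12 (ENSMUSG00000061353, chromosome 6, 117168535 to 117181367), the ligand of both receptors, was low in both genotypes. It had 2.20, 3.01 and 3.71 CPM in Sp9 null replicates 1, 2 and 3, against 2.31, 1.92 and 3.13 CPM in wild type replicates 1, 2 and 3. The counts behind these values were 15 to 35 in Sp9 null and 21 to 31 in wild type libraries, above the floor of 3 counts in every library. The groups overlapped, and the log2 fold change was 0.32 (SE 0.32, 95% interval -0.41 to 1.04, edgeR adjusted p = 0.937). Meninges and mesenchyme, a known source of CXCL12, had summed markers of 89.1 to 98.0 CPM in Sp9 null and 91.3 to 101 CPM in wild type libraries, and 0 of the 6 tested were called in either fit, with 0 at an unadjusted p under 0.05. Crabp2, which encodes a retinoic acid binding protein, made up most of that sum (61.8 to 72.1 CPM in Sp9 null and 67.1 to 80.8 CPM in wild type libraries). The other 11 listed markers summed to 25.9 to 27.2 CPM in Sp9 null and 19.9 to 26.0 CPM in wild type libraries, and the log2 fold changes of the 5 of them that were tested were 0.07 to 0.33. The part of these cells in the Cxcl12 level was not tested.

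Erbb4 (ENSMUSG00000062209, chromosome 1, 68032186 to 69108059), the neuregulin receptor, had the most counts of the 7 genes and the tightest estimate. It had 96.7, 76.8 and 99.9 CPM in Sp9 null replicates 1, 2 and 3, against 109, 80.3 and 90.8 CPM in wild type replicates 1, 2 and 3. The lowest library of each genotype was the one numbered 2, and the groups overlapped almost fully. The log2 fold change was -0.02 (SE 0.14, 95% interval -0.34 to 0.30, edgeR adjusted p = 0.997). With the block the interval narrowed to -0.16 to 0.13 (edgeR adjusted p = 0.957).

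**Figure D2:**
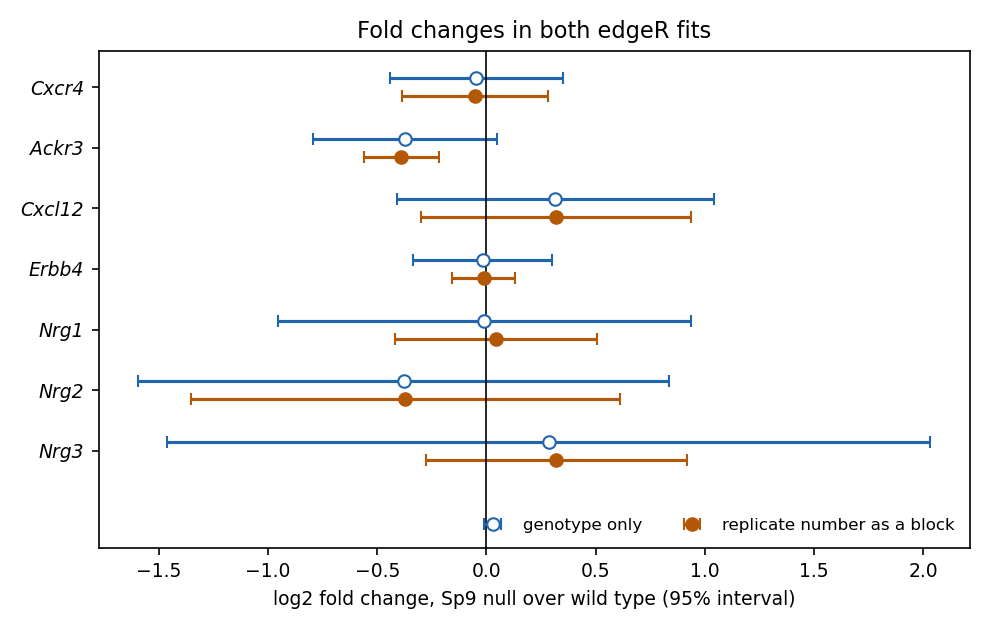
Log2 fold change of Sp9 null over wild type with its 95% interval for the 7 genes, from the edgeR fit with genotype alone (open circles) and with the replicate number as a block (filled circles). The Ackr3 interval with the block, -0.56 to -0.22, is the one of these 14 intervals that excludes 0.

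The neuregulin ligands were low and varied widely between the libraries of a genotype. Nrg1 (ENSMUSG00000062991, chromosome 8) had 4.83, 4.28 and 8.06 CPM in Sp9 null replicates 1, 2 and 3, against 7.45, 2.84 and 7.36 CPM in wild type replicates 1, 2 and 3. Its log2 fold change was -0.009 (SE 0.41, 95% interval -0.96 to 0.94, edgeR adjusted p = 1.0), and its sign changed with the block (0.04). The deposited locus, 31818028 to 31918203, spans 100.2 kb of the 1069.5 kb that GENCODE M21 gives Nrg1, so reads from its more distant first exons may not be counted.

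Nrg3 (ENSMUSG00000041014, chromosome 14, 38368952 to 39473088), a neural ligand of ERBB4, had 4.10, 1.09 and 5.41 CPM in Sp9 null replicates 1, 2 and 3, against 4.09, 0.733 and 3.93 CPM in wild type replicates 1, 2 and 3. The library numbered 2 was the lowest of each genotype, and Sp9 null exceeded wild type at all 3 numbers, as in 15.7% of tested genes. The log2 fold change was 0.29 (SE 0.73, 95% interval -1.46 to 2.03, edgeR adjusted p = 0.992). With the block the SE was 0.29 and the interval -0.28 to 0.92.

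Nrg2 (ENSMUSG00000060275, chromosome 18, 36017707 to 36197380), the member with the fewest counts, had 7, 4 and 11 counts in Sp9 null replicates 1, 2 and 3, against 14, 8 and 11 counts in wild type replicates 1, 2 and 3. Those are 1.03, 0.364 and 1.17 CPM in Sp9 null and 1.47, 0.733 and 1.11 CPM in wild type libraries. The log2 fold change was -0.38 (SE 0.53, 95% interval -1.6 to 0.84, edgeR adjusted p = 0.959), so a difference as large as that of Ackr3 was not detectable at this depth.

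Both libraries numbered 2 lay on the same side of the other 4 for 5 of the 7 genes. In Erbb4, Nrg1, Nrg2 and Nrg3 both libraries numbered 2 lay below the other 4, as was so for 21.9% of all tested genes. In Cxcr4 both lay above the other 4, as in 15.8% of tested genes, while Ackr3 and Cxcl12 fitted neither pattern. Ackr3 was highest in the library numbered 2 of each genotype, as were 22.5% of tested genes. Pan-neuronal markers moved with Erbb4 and the neuregulins, summing to 2422 CPM in Sp9 null and 2894 CPM in wild type replicate 2, against 3828 to 4269 CPM in the other libraries. Cajal-Retzius markers were at 23.9 CPM in Sp9 null and 19.6 CPM in wild type replicate 2, against 82.8 to 155 CPM elsewhere, and hypothalamic markers at 1.37 and 1.10 CPM against 5.45 to 12.7 CPM. Erythroid and pericyte markers were highest in the libraries numbered 2, as Cxcr4 was. Erythroid markers summed to 1277 CPM in Sp9 null and 1249 CPM in wild type replicate 2, against 819 to 943 CPM elsewhere, and pericyte markers to 254 and 249 CPM against 183 to 231 CPM. The part of these cell types in the levels of the 7 genes was not tested.

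**Figure D3:**
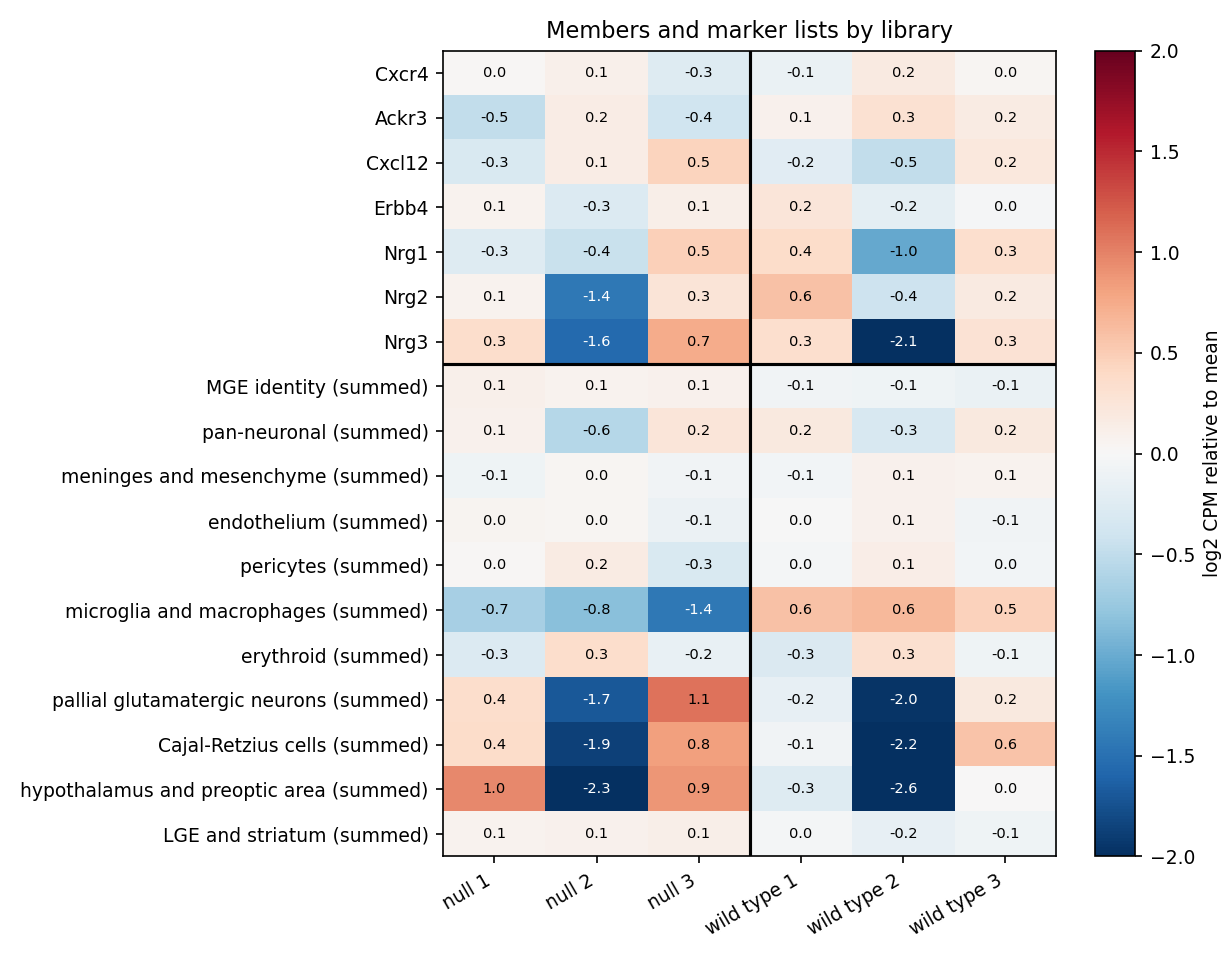
Log2 CPM of each gene (above the line) and of each summed marker list (below it) relative to its mean over the 6 libraries, Sp9 null left and wild type right. Nrg3 is at -1.56 and -2.14 in the libraries numbered 2, where the pallial, Cajal-Retzius and hypothalamic lists are also lowest.

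Levels were ordered per length, as CPM per kb of the exons that GENCODE M21 annotates within each deposited locus. Ackr3 was highest at 18.3 ± 4.67 in Sp9 null and 24.1 ± 1.89 in wild type libraries (SD, n = 3 each). Erbb4 followed at 7.38 ± 1.01 and 7.57 ± 1.20, then Cxcr4 at 5.43 ± 0.711 and 5.69 ± 0.621, in Sp9 null and wild type. The lowest Ackr3 library, at 15.1, lay above the highest Erbb4 library, at 8.86, while the ranges of Erbb4 and Cxcr4 overlapped although Erbb4 was higher in 6 of 6 libraries. On this scale the ligands were lower than the receptors. Nrg1 was at 1.10 ± 0.392 in Sp9 null and 1.13 ± 0.507 in wild type, Nrg3 at 0.518 ± 0.325 and 0.428 ± 0.278, Cxcl12 at 0.363 ± 0.0927 and 0.300 ± 0.0751, and Nrg2 at 0.276 ± 0.139 and 0.358 ± 0.119. Nrg1 exceeded Nrg3 in 6 of 6 libraries with overlapping ranges, Nrg3 exceeded Cxcl12 in 4 of 6, and Cxcl12 exceeded Nrg2 in 3 of 6, so the last 3 do not differ beyond their spread. The gap between Nrg1 and Cxcr4 depends on the length used, as the deposited length of Nrg1 was 0.4 times its exons. On the deposited FPKM scale Nrg1 averaged 2.72 in Sp9 null and 2.80 in wild type, against 3.63 and 3.80 for Cxcr4. There Nrg1 exceeded Cxcr4 in Sp9 null replicate 3 (3.83 against 3.09) and wild type replicate 1 (3.54 against 3.37). It was lower than Cxcr4 in the other libraries.

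**Figure D4:**
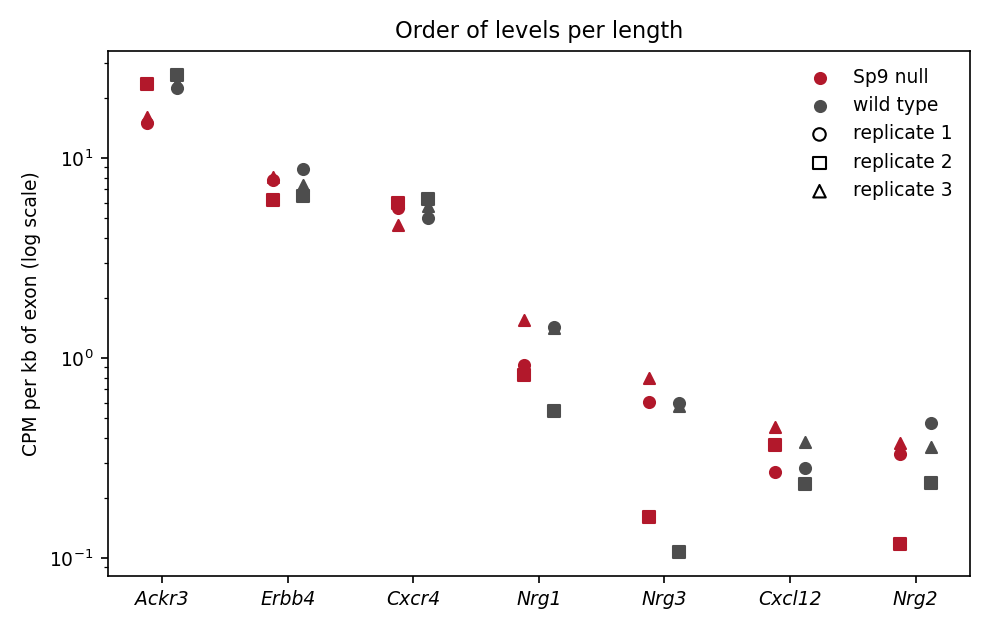
CPM per kb of exon (log axis) of the 7 genes in order of their mean, with Sp9 null libraries to the left of wild type libraries and symbols marking replicate numbers. Ackr3 lies at 15.1 to 26.2, the receptors Erbb4 and Cxcr4 between 4.63 and 8.86, and the 4 ligands at 1.55 or less. On the deposited FPKM scale the ranges of Nrg1 and Cxcr4 overlap.

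Likeness was measured for the 4 members over 5 CPM as Pearson's r of log2 CPM over the 6 libraries, among 11860 genes. The 6 points are the same libraries for every gene, and same-numbered libraries deviate together. An r over 0.9 was reached by 1.27% of genes for Ackr3 and by 1.99%, 2.02% and 1.97% for Cxcr4, Erbb4 and Nrg1. The genes most like Ackr3 were Akt1s1 (r = 0.999), Cars (0.995) and Cat (0.990). For Cxcr4 they were Prpf38a (0.993), Mrps9 (0.992) and Cib1 (0.992), for Erbb4 Ppp1r26 (0.990), Fuca2 (0.988) and Slc44a5 (0.987), and for Nrg1 Itga3 (0.988), Arhgap39 (0.985) and Vcan (0.983). These r values are descriptions over 6 points.

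Of the other chemokine ligands and receptors, 37 were in the table, 9 had no count in any library and 10 passed the filter. With genotype alone 0 of the 10 were called by edgeR, with 1 at an unadjusted p under 0.05, and the median log2 fold change was -0.014. With the block 1 fell and 0 rose, beside 1.78% of all tested genes called lower. The gene was Cx3cr1, the fractalkine receptor of microglia, at 1.57 ± 0.995 CPM in Sp9 null and 6.67 ± 1.15 CPM in wild type libraries (SD, n = 3 each). With the block its log2 fold change was -2.11 (SE 0.30) at an edgeR adjusted p of 9.22e-06; genotype alone gave an adjusted p of 0.346, and DESeq2 also called it. The microglia and macrophage markers, 8 tested, moved with it, summing to 9.01 to 15.4 CPM in Sp9 null and 33.4 to 38.0 CPM in wild type libraries. With the block 6 fell and 0 rose, beside the same 1.78% of all tested genes called lower. Genotype alone called 0 of them in edgeR, with 7 at an unadjusted p under 0.05, beside 5.91% of all tested genes. That list includes Cx3cr1 itself, and the part of cell number was not tested. The most abundant chemokine-related gene, the cytokine Mif, was at 136 ± 14.6 CPM in Sp9 null and 145 ± 7.47 CPM in wild type libraries (edgeR adjusted p = 0.962), and the chemokine Ccl27a at 18.0 ± 4.19 and 16.4 ± 1.72 CPM (adjusted p = 0.951). Ccl27a stands under several identifiers, of which 1 was tested, so its reads may be split between near-identical copies.

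Among the genes that transmit or end CXCL12 signals, 27 were tested and 0 were called by edgeR in either fit, and by DESeq2 0. The number with an unadjusted p under 0.05 was 0 with genotype alone and 4 (14.8%) with the block, beside 5.91% and 17.2% of all tested genes, and the median log2 fold changes were -0.015 and -0.019. The G protein subunit gene Gnb1 was at 677 ± 28.5 CPM in Sp9 null and 678 ± 14.4 CPM in wild type libraries (SD, n = 3 each). Gnai2, of the inhibitory G protein that CXCR4 couples to, was at 437 ± 39.9 and 464 ± 29.5 CPM in Sp9 null and wild type (edgeR adjusted p = 0.968). Hmgb1, whose protein binds CXCL12 outside the cell, was at 535 ± 102 and 482 ± 52.2 CPM (adjusted p = 0.928).

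The other ErbB receptors and EGF-family ligands had 14 measured members, of which 8 were tested and 0 were called by edgeR in either fit, with 0 and 1 at an unadjusted p under 0.05 without and with the block. DESeq2 called 0. Erbb2, the co-receptor without a ligand of its own, was at 17.3 ± 1.71 CPM in Sp9 null and 18.0 ± 2.25 CPM in wild type libraries (SD, n = 3 each). Nrg4, the remaining neuregulin gene, was at 22.6 ± 3.10 and 21.2 ± 1.67 CPM in Sp9 null and wild type (edgeR adjusted p = 0.955). The named genes of this list by abundance were Tmeff1, at 196 ± 38.2 and 182 ± 27.6 CPM, Cspg5, which encodes the neuregulin-related neuroglycan C, at 34.5 ± 7.14 and 39.0 ± 3.43 CPM, and Nrg4.

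Of 33 tested genes of neuregulin processing and ErbB signalling, 0 were called by edgeR with genotype alone, with 2 (6.06%) at an unadjusted p under 0.05, and DESeq2 called 0. With the block 11 (33.3%) had an unadjusted p under 0.05, beside 17.2% of all tested genes. With the block 1 rose and 1 fell, beside 4.0% of all tested genes called either way. Erbb2ip, which encodes the ERBB2-binding scaffold erbin, rose to 311 ± 15.6 CPM in Sp9 null, against 274 ± 12.4 CPM in wild type libraries (log2 fold change 0.20, SE 0.06, blocked edgeR adjusted p = 0.0332). Dlg4, which encodes PSD-95, a synaptic scaffold that binds ERBB4, fell to 112 ± 36.7 CPM in Sp9 null, against 132 ± 33.5 CPM in wild type libraries (SD, n = 3 each, log2 fold change -0.24, SE 0.07, blocked edgeR adjusted p = 0.0252). Both calls were lost without the libraries numbered 2, without those numbered 3 and by DESeq2 with the block. The other motogens of interneurons, such as neurotrophin, HGF and GDNF genes, had 5 tested members, of which 0 were called by edgeR or DESeq2 and 0 had an unadjusted p under 0.05 in either fit. The neurotrophin receptor Ntrk2 was at 44.1 ± 3.54 CPM in Sp9 null and 49.5 ± 5.37 CPM in wild type, Ntrk3 at 45.4 ± 26.1 and 44.8 ± 21.5 CPM, and the GDNF receptor Gfra1 at 15.5 ± 9.96 and 17.1 ± 7.49 CPM (SD, n = 3 each).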

How the data were processed

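Per the file headers, the authors deposited 1 table that holds a whole-number read count and an FPKM value for every gene and library. Alignment and assembly tools named by the submitters' processing notes are Cufflinks 2.1.1 and TopHat, with the build GRCm38.p4. The counting program and strandedness were not given in the sources used here, so overlapping antisense transcription could not be told apart. Each deposited FPKM value was the count over 1 fixed length per gene and library total (relative tolerance 0.001) for 21180 of 21180 genes counted in 2 or more libraries. That length was 0.4 (Nrg1) to 1.58 (Cxcl12) times the GENCODE M21 exon union for the 7 genes. The order of levels therefore used CPM per kb of that union within the deposited locus. The Ackr3 to Cxcr4 ratio used the deposited FPKM. The number of unused sample columns was 0.

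Counts were tested with edgeR 4.0.16 (R 4.3.3; quasi-likelihood test, two-sided, TMM, default expression filter, robust, 14929 genes) with genotype as the only term and called at a Benjamini-Hochberg adjusted p under 0.05 over all tested genes. SEs are approximate (fold change over the square root of F). DESeq2 1.42.0 and limma 3.58.1 on log2(FPKM + 0.1) or log2(FPKM + 1) were alternatives. Fits were also run on simulated data, from which no result is given or drawn here. A floor of 3 counts was 0.273 to 0.439 CPM; intervals and floors cover counting or replicate error only. Deviations from genotype means correlated by 0.339, 0.719 and 0.528 within numbers 1, 2 and 3, all over 0.1, so same-numbered libraries were treated as pairs, from the data and not from a label; numbers 1 and 3 also correlated across genotypes (0.343 and 0.229). The members and lists were chosen with earlier results of these data known. Named genes were the 7 members, list genes called in either fit, where fewer than 2 were called the most abundant of the list up to 3 in all, and the 3 genes most like each member over 5 CPM; Sp9 is the label check, and Nkx2-1, Lhx6, Dlx1, Crabp2 and Erbb2 were added after their values were seen.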

Additional observations from a re-analysis of the deposited data

How the results depend on the processing

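With genotype alone, edgeR called 7 genes higher and 15 lower in Sp9 null libraries over all tested genes. The replicate block gave 332 and 265, no filter 21 and 44, DESeq2 37 and 52, and DESeq2 with the replicate block 88 and 70. limma called 29 lower on log2(FPKM + 0.1), 28 on log2(FPKM + 1) and 34 on log2(FPKM + 0.1) with no filter. Leaving out 1 library gave 0 to 12 higher and 2 to 22 lower. With the block, leaving out the pair numbered 1, 2 or 3 gave 667, 67 and 104 higher and 526, 59 and 115 lower. Without the block, leaving out both libraries of a number, an alternative chosen after seeing the data, gave 0 to 38 higher and 0 to 51 lower.

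Among the 7 genes, 0 were called higher in all 20 alternatives. Called lower were 1 (Ackr3) with the replicate block, 0 to 1 with a pair left out in that fit, and 1 without both libraries numbered 2 in the fit with genotype alone. The Ackr3 log2 fold change was negative in all 20 alternatives, from -0.62 to -0.24, with edgeR, DESeq2 or limma adjusted p from 0.00509 to 1.0; with the replicate block it was -0.39, without pair 1 -0.31 and without pair 2 -0.55, the 3 blocked fits that called it. Without Sp9 null replicate 2 it was -0.62 (adjusted p = 0.0837), and without Sp9 null replicate 1 it was -0.24. The Ackr3 to Cxcr4 log2 ratio difference stayed between -0.49 and -0.20 in 10 alternatives; with the replicate block it was -0.36 (exact sign-flip permutation p = 0.25, the smallest that 3 pairs allow).

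No other member was called in any alternative. The sign changed in some alternatives for Nrg1, Cxcr4, Erbb4, Nrg2 and Nrg3. Nrg1, at -0.009, was 0.042 with the replicate block, 0.058 by DESeq2 with the block, 0.00035 with DESeq2 size factors, 0.028 on log2(FPKM + 0.1) with or without the filter, 0.004 on log2(FPKM + 1) and between -0.35 and 0.20 with 1 library left out. With a pair left out, Nrg1 was between -0.18 and 0.35 with the block and between -0.15 and 0.31 without it. With 1 library left out, Cxcr4 lay between -0.14 and 0.058, Erbb4 between -0.11 and 0.11, Nrg2 (-0.38 with all libraries) between -0.73 and 0.025 and Nrg3 (0.29 with all libraries) between -0.21 and 0.74. With a pair left out, Cxcr4 lay between -0.15 and 0.057 with the block and between -0.14 and 0.06 without, and Erbb4 between -0.10 and 0.072 with it and between -0.12 and 0.08 without.

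The other chemokine genes had 1 call with the replicate block, by DESeq2, by DESeq2 with the block and with each pair left out of the blocked fit. Neuregulin processing had 2 calls with the block, and 6, 0 and 0 without pair 1, 2 and 3, when 7.89%, 0.836% and 1.45% of all tested genes were called either way. CXCL12 signalling had 2, 0 and 1 without those pairs and the ErbB family 1, 0 and 0. The causes were not tested. Nrg2 rests on 4 to 14 counts per library. The SE of Nrg3 was 0.73 with genotype alone and 0.29 with the block. The block changed no call among the 7 genes other than that of Ackr3.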

Other observations

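Some low genes of the same pathways lay below the filter on low counts and were fitted only in the alternative with no filter. They were picked after their values were seen. Cxcl14, a CXC chemokine gene, had 4, 3 and 9 counts in Sp9 null replicates 1, 2 and 3, against 28, 7 and 31 counts in wild type replicates 1, 2 and 3. Its mean was 0.605 ± 0.341 CPM in Sp9 null and 2.23 ± 1.38 CPM in wild type libraries (SD, n = 3 each), with 1 wild type library, replicate 2, inside the Sp9 null range. In the edgeR fit with no filter its log2 fold change was -1.85 (SE 0.63, adjusted p = 0.791). It was lower at 3 of 3 replicate numbers, as were 22.6% of the genes that passed the filter. Erbb3, the neuregulin receptor of glial and neural crest lineages, had 1 count over the Sp9 null and 12 counts over the wild type libraries (edgeR adjusted p = 0.872 with no filter). Egfr had 22 and 26 counts and Met, the HGF receptor gene, 19 and 18 counts over the Sp9 null and wild type libraries, so neither showed a difference detectable at this depth.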
